A study of Canis lupus familiaris with 23 samples.

Results

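The genes described here are the nuclear genes that carry the symbols of oxidative phosphorylation subunits. They were chosen by name: entries called NDUFA, NDUFB, NDUFC, NDUFS or NDUFV with a number, SDHA to SDHD, every UQCR name, COX4 to COX8 names with the letter A, B or C, and every ATP5 name. This rule found 67 of the 21420 entries in the files, and all 67 were listed in every library. By complex, 36 belong to complex I, 4 to complex II, 5 to complex III, 6 to complex IV and 12 to complex V. The other 4 carry such a name without being a regular subunit: COX7A2L, NDUFA4L2, ATP5S and ATP5SL. A filter on low counts kept 63 members for testing, and ATP5SL, COX6A2, NDUFB7 and NDUFS7 did not pass it.

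Bulk RNA of dog skin and of epidermal organoids was counted by CEL-seq2 in 23 libraries of 12 groups. This method reads transcripts at their 3′ ends. Tissue gave 2 libraries each of whole skin, hair follicles and interfollicular epidermis, the epidermis between the follicles. Organoids, all collected on day 7, were grown from follicles or from interfollicular epidermis at passages 0 to 1 (early) or 3 to 6 (later). With a Tgf-beta inhibitor there were 3 early and 2 later follicle libraries and 1 early and 1 later interfollicular library. Without it there were 2 early and 2 later follicle libraries. Follicle organoids of passages 3 to 6 were also kept in differentiation medium, in this medium without Noggin and R-Spondin-1, or in the medium that also lacked Forskolin, with 2 libraries each. The labels give no breed, age or dog for any library and name no inhibitor for the differentiation media. Every value is bulk RNA of mixed cells.

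Oxidative phosphorylation is the last step of respiration. Complexes I and II pass electrons from NADH and succinate to ubiquinone, complex III passes them to cytochrome c, and complex IV passes them to oxygen. Complexes I, III and IV pump protons across the inner mitochondrial membrane, and complex V, the ATP synthase, uses their return to make ATP. All subunits of complex II and most of the other subunits come from nuclear genes, and the remainder from the mitochondrial genome. Keratinocytes in culture also draw strongly on glycolysis.

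Total counts ran from 84439 to 4792577 per library, so that 3 counts stood for 0.626 CPM (counts scaled to a common library total, by TMM in what follows and unscaled here) in the deepest library and for 35.5 CPM in the shallowest, an interfollicular tissue library. Such a floor covers counting error only. The 6 basal keratinocyte markers summed to 7042 to 16431 CPM in tissue and 27267 to 77442 CPM in organoids, so all libraries held keratinocyte RNA. Fibroblast markers summed to 1241 to 7169 CPM in tissue, 47.8 to 484 CPM in follicle organoids in expansion medium, 129 and 679 CPM in the early and later interfollicular organoids and at most 25.8 CPM in the differentiation media. The differentiation libraries list a different set of entries from the rest (17141 shared entries of 18113 and 20448), so the medium and whatever made the files differ cannot be told apart. The labels do not say whether replicates came from different dogs or cultures, so every p-value measures the spread between these libraries.

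The members together took a larger share of nuclear counts in organoids in expansion medium than in tissue. Their sum ran from 0.991 to 1.23% of nuclear counts in the 6 tissue libraries and from 1.39 to 1.97% in the 11 organoid libraries in expansion medium, with no overlap. By group it was 1.11% ± 0.166 (SD, n = 2) in whole skin, 1.17% ± 0.0744 (SD, n = 2) in follicles and 1.02% ± 0.0478 (SD, n = 2) in interfollicular epidermis. Since these are bulk samples, a change in the kinds of cells present and a change in RNA per cell cannot be told apart. Follicle organoids with the inhibitor held 1.52% ± 0.114 (SD, n = 3) early and 1.78% ± 0.175 (SD, n = 2) later. Those without it held 1.87% ± 0.143 (SD, n = 2) early and 1.82% ± 0.133 (SD, n = 2) later. The 2 interfollicular organoid libraries held 1.76% early and 1.41% later. In the later one ATP5G3 alone gave 1142 of the 2724 member counts, so its place above the tissue libraries rests on that gene. This order of groups is a description, and the share was not tested.

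In their summed share of counts the mitochondrially encoded genes, 13 protein genes of the mitochondrial genome, did not show this division. This sum leans on ATP6, at a mean of 67971 CPM over the 23 libraries, with ND4 next at 28803 CPM. The 13 genes together took 10.6 to 15.9% of all counts in tissue. In follicle organoids in expansion medium they took 5.35 to 26.9%, a range that holds all tissue values. Both ends of this range came from the early organoids with inhibitor, whose 3 libraries held 5.35%, 26.9% and 17.7%, while their members' share ran only from 1.39 to 1.61%. In the library at 5.35% suprabasal keratinocyte markers, which mark differentiating cells, summed to 26391 CPM, against 3428 and 3761 CPM in the other 2. In replicate 1 of the early organoids without inhibitor they summed to 13888 CPM, at a mitochondrially encoded share of 21.9%. The part of these markers in the share was not tested. The 3 early libraries with inhibitor had 4.06, 22.8 and 13.8 mitochondrially encoded counts for each count of a member. The mean mitochondrially encoded share was 17.7% ± 5.78 (SD, n = 9) in follicle organoids and 14.1% ± 2.56 (SD, n = 2) in follicle tissue, which did not pass an exact two-sided permutation test (p = 0.4, Benjamini-Hochberg adjusted p = 0.73 over 4 comparisons). With and without inhibitor it was 16.9% ± 7.69 (SD, n = 5) and 18.7% ± 2.8 (SD, n = 4), also by exact permutation p = 0.71 and adjusted p = 0.73. Later and early organoids held 17% ± 1.38 (SD, n = 4) and 18.4% ± 8.02 (SD, n = 5), with an exact permutation p of 0.73 and the same adjusted p of 0.73. The smallest p these 3 comparisons allow is 0.0364, 0.0159 and 0.0159.

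**Figure D1:**
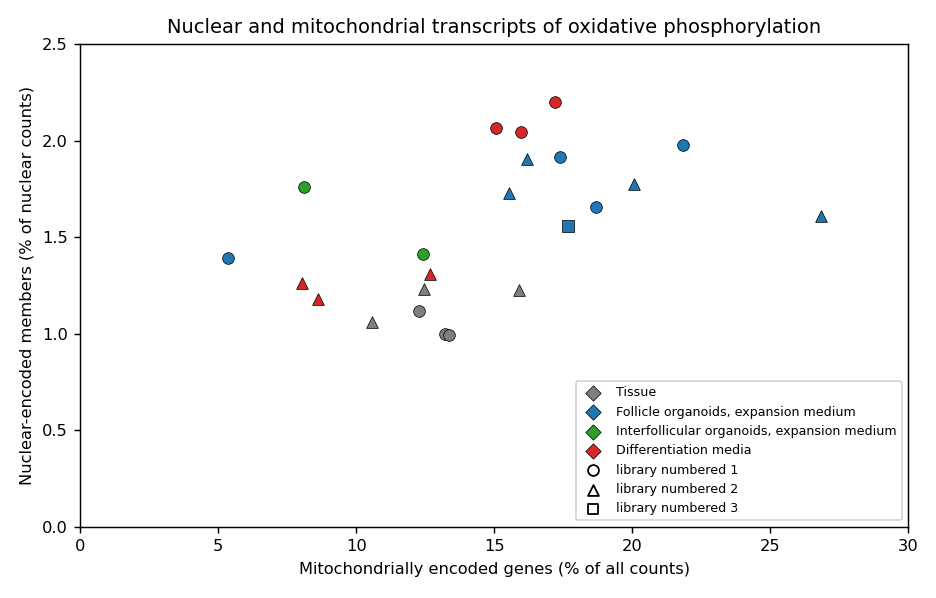
Each point is a library, with the mitochondrially encoded share of all counts (percent) on the horizontal axis and the members' share of nuclear counts (percent) on the vertical axis. Colours mark tissue, organoids by origin and medium, and symbols the replicate number in the labels. Tissue libraries lie at 0.991 to 1.23% on the vertical axis and organoids in expansion medium at 1.39 to 1.97%, while their horizontal ranges overlap. In the later interfollicular library, at 1.41%, ATP5G3 gave 1142 of the 2724 member counts.

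Over all 23 libraries the 2 shares had a Pearson r of 0.49 and a Spearman rho of 0.54, given as a description because the libraries share groups, medium and depth. Within the 11 organoid libraries in expansion medium r was 0.40 and rho 0.37. Without replicate 1 of the early organoids with inhibitor, the library at 5.35%, they were 0.13 and 0.16. Within the 6 tissue libraries r was 0.34 and rho was -0.09. The deviations of the 21 replicated libraries from their group means had an r of 0.55 and a rho of 0.67. These 21 include the 6 differentiation libraries, and in groups of 2 libraries the deviations mirror each other. The 2 values therefore cannot show whether there is a general link within groups. The 6 differentiation libraries fell into 2 sets in both shares, described with those media, so no correlation is given within them.

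Follicle organoids were set against follicle tissue member by member. Nearly all members had a higher mean in the organoids, and the changes that passed the test lay between 0.75 and 1.17 on the log2 scale except for COX7A1 and NDUFA4L2. Of 63 members, 61 had a higher fitted mean in the organoids, against 50.1% of all 9888 genes tested. The median log2 change of the members was 0.56, against 0.0041 over all genes. By edgeR's quasi-likelihood test at an adjusted p under 0.05, 11 members were higher and 1 was lower, where 9.06% of all genes were called higher and 19% lower. In 38 members all 9 organoid libraries lay above both tissue libraries, which held for 14.8% of all genes, and in 1 member all lay below, which held for 19.7%. With DESeq2 size factors or plain library totals the medians of all genes moved to -0.17 and -0.18 and those of the members to 0.38 and 0.37, and 5 members were called higher under each. Without follicle tissue replicate 1 or 2, only 1 or 2 members were called higher, and 6 or 7 without replicate 1 of the later organoids without inhibitor or replicate 2 of the later organoids with it. A fit of only these groups called 27 higher. Basal keratinocyte markers summed to 8953 and 8991 CPM in follicle tissue and to 44147 to 73384 CPM in these organoids, and their part in the members' changes was not tested.

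COX7A1, the muscle isoform of a small complex IV subunit, was the only member called lower. It stood at 13.1 and 10.03 CPM in follicle tissue and at 10.2 and 27.8 CPM in whole skin. In the 9 follicle organoid libraries the lowest, median and highest values were 0, 0.282 and 4 CPM, with 4 libraries at 0. No organoid library reached either follicle tissue library. The log2 change was -4.73 ± 0.74 (SE; adjusted p = 9.3e-05), and the call was kept in all 20 alternative analyses. Skeletal muscle markers summed to 47.7 and 92.9 CPM in follicle tissue and to between 1.00 and 8.28 CPM in these organoids, with MYH2, MYH7 and TNNC2 of the 9 at 0 in follicle tissue. Smooth muscle markers summed to 1182 and 1691 CPM against 33.9 to 125 CPM, with none of the 6 at 0 in the tissue. The part of muscle RNA in the fall of COX7A1 was not tested. COX6A2, the other muscle isoform, held 0 to 3 counts in every library and was not tested. COX6A1 and COX7A2, the partners of these isoforms in other tissues, matched no entry by symbol and were not analysed here.

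NDUFA4L2, a relative of NDUFA4 that is known to be induced by hypoxia, had the largest rise. It stood at 6.55 and 11.9 CPM in follicle tissue. In the organoids the lowest, median and highest values were 24.2, 73.7 and 229 CPM, so all 9 lay above the tissue. The log2 change was 2.87 ± 0.72 (SE; edgeR adjusted p = 0.0043). NDUFA4 itself, a complex IV subunit despite its name, went from 227 and 189 CPM in tissue to between 218 and 503 CPM in organoids, a log2 change of 0.59 ± 0.41 (SE) that did not pass the test (edgeR adjusted p = 0.30). The list of hypoxia and glycolytic genes, which also holds NDUFA4L2, had 13 of 15 members called higher with a median log2 change of 2.49. Among them were the glycolytic enzyme ENO1 (3.25 ± 0.47), the glucose transporter SLC2A1 (4.11 ± 0.65) and GAPDH (2.48 ± 0.41), each as log2 change with SE.

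In complex I, 5 of 34 tested members rose, with a median log2 change of 0.52 over all 34. All 5 are accessory subunits, as are 29 of the 36 complex I members. NDUFV3, which sits in the part of the complex that takes electrons from NADH, stood at 34.04 and 30.7 CPM in follicle tissue and between 48.7 and 117 CPM in the organoids, a log2 change of 1.17 ± 0.31 (SE; edgeR adjusted p = 0.0068). NDUFC1 of the membrane arm went from 440 and 488 CPM to 745 to 1199 CPM (0.93 ± 0.29), and NDUFB4 of the same arm from 38.0 and 50.8 CPM to 68.5 to 117 CPM (1.06 ± 0.35). For neither gene did the organoid and tissue libraries overlap. NDUFC2 (0.92 ± 0.33) and NDUFA8 (0.95 ± 0.35) passed with edgeR adjusted p-values of 0.040 and 0.047, and their calls were kept in 8 and 4 of 20 alternative analyses. NDUFA2 at -0.06 ± 0.31 was the only complex I member with a value below 0, and it did not pass.

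None of the 4 complex II genes passed. SDHA, the flavoprotein that oxidises succinate, stood at 49.8 and 67.7 CPM in follicle tissue and 68.0 to 149 CPM in organoids, a log2 change of 0.73 ± 0.36 (SE; edgeR adjusted p = 0.14). SDHB, the iron-sulphur subunit, had 0.37 ± 0.32, and the membrane anchors SDHC and SDHD had 0.03 ± 0.29 and 0.39 ± 0.29. None of the 5 complex III members passed either, at a median of 0.63 and a range of 0.35 to 0.99. The 2 core proteins of complex III are listed under provisional locus names and so fall outside the naming rule. A RefSeq table pairs these names with UQCRC1 and UQCRC2, which rose by 1.51 ± 0.46 (adjusted p = 0.016) and 1.03 ± 0.28 (adjusted p = 0.0076) in the same edgeR fit.

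In complex IV, COX5A and COX8A rose. COX5A, a structural subunit, went from 203 and 204 CPM to 343 to 465 CPM (0.98 ± 0.31; edgeR adjusted p = 0.021), and COX8A from 365 and 394 CPM to 588 to 1104 CPM (0.92 ± 0.32; edgeR adjusted p = 0.035). COX5B had 0.54, which did not pass. COX7A2L, a factor of respiratory supercomplexes related to COX7A, stood at 51.1 and 77.8 CPM in tissue and 105 to 166 CPM in organoids (0.98 ± 0.28; edgeR adjusted p = 0.010). In complex V all 12 members had a higher mean in organoids, at a median log2 change of 0.75, and 2 passed: ATP5G2 (0.75 ± 0.27) and ATP5G3 (0.88 ± 0.30), whose calls were kept in 8 and 11 of 20 alternatives. ATP5G1, ATP5G2 and ATP5G3 encode the same mature subunit of the membrane ring. ATP5G1 went from 241 and 273 CPM to between 354 and 721 CPM (0.97 ± 0.45) and did not pass (edgeR adjusted p = 0.11).

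Other mitochondrial lists were read in the same comparison, against the same 9.06% of all genes called higher and 19% lower. The 13 mitochondrially encoded genes had a median log2 change of 0.77, against 0.56 over the members, although the summed share of the 13 did not pass its test. Of the 13, ND4L (1.90 ± 0.49) and ATP8 (1.21 ± 0.44) were called higher. Both genes overlap a neighbour, ND4 and ATP6, and their reads may not be told apart from the neighbour's. Of 76 mitochondrial ribosomal proteins 10 were higher and none lower (median 0.62), led by MRPL35 (1.39 ± 0.32), MRPL16 (1.34 ± 0.33) and MRPL42 (0.97 ± 0.28). Of 8 inner membrane exchange and porin genes 3 were higher: the porins VDAC2 (1.27 ± 0.30) and VDAC1 (1.04 ± 0.26) and the ADP/ATP carrier SLC25A4 (1.11 ± 0.38). Of 31 assembly factors 2 were higher and 1 lower, namely TMEM70 (0.98 ± 0.32), NDUFAF2 (1.58 ± 0.55) and NDUFAF3 (-0.95 ± 0.31), both counts below the shares of all genes. In the pyruvate dehydrogenase and citrate cycle list 5 of 21 were higher and 1 lower: PDK4, a kinase that shuts off pyruvate dehydrogenase, had a log2 change of -5.49 ± 0.72, whereas its relative PDK1 had 1.15 ± 0.30. None of 10 genes of mitochondrial biogenesis passed, with TFAM, which packages mitochondrial DNA, at 0.19 ± 0.37. CYC1 (1.06 ± 0.33), COX4I1 (0.96 ± 0.30) and NDUFAB1 (0.96 ± 0.35), respiratory chain genes outside the naming rule, rose.

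**Figure D2:**
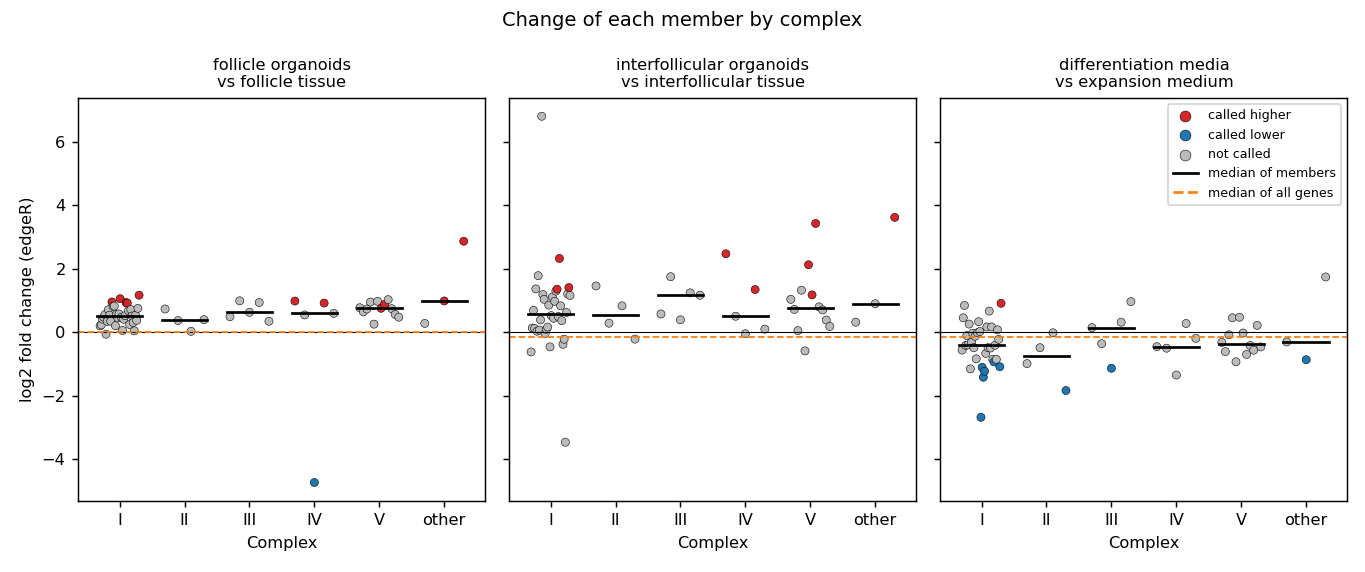
Each point is a member, grouped by complex on the horizontal axis, with its log2 fold change from edgeR on the vertical axis in 3 comparisons. Red points were called higher, blue points lower, black bars are medians of a complex, and the dashed line is the median of all genes. In the first panel all points but 2 lie above 0, and COX7A1 lies at -4.73.

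Interfollicular organoids against interfollicular tissue gave called rises and no called falls among the members, from fewer libraries. Of 63 members 9 were called higher and none lower by edgeR, where 6.78% of all genes were called higher and 4.5% lower. By fitted mean alone, 54 members were higher and 9 lower, against 45.6% and 53.6% of all genes. With 1 library in each organoid group, the p-values assume that these organoids vary like the other groups. The members had a median log2 change of 0.70 against -0.14 over all genes, and with plain library totals 0.12 against -0.70, with 3 members called higher and 1 lower. Without interfollicular tissue replicate 1 there were 4 higher calls, and without the later organoid library 5. Suprabasal keratinocyte markers summed to 13218 and 17418 CPM in this tissue and to 5266 and 3631 CPM in its organoids, and basal markers to 7042 and 16431 CPM against 27267 and 43708 CPM. Their part in the members' changes was not tested.

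ATP5G3 had the smallest p of these rises. It was at 321 and 301 CPM in interfollicular tissue, at 1635 CPM in the early organoid library and at 6866 CPM in the later one. The 9 follicle organoid libraries in expansion medium lay between 719 and 944 CPM, below both. The log2 change was 3.43 ± 0.40 (SE; edgeR adjusted p = 1.5e-05), and the call was kept in all 13 alternative analyses. The rise of ATP5G3 was larger than in the follicle organoids with inhibitor, by 2.54 ± 0.48 on the log2 scale (SE; edgeR adjusted p = 0.0022), in a comparison added after the values were seen. It was the only member called there, where 3.49% of all genes were called higher and 0.455% lower. Without the later interfollicular library the difference was 1.505 with an edgeR adjusted p of 0.27. In that library ATP5G3 made up 1142 of 1751 counts of complex V (65.2%), against 26.1% in the early interfollicular library and 11.8 to 15.2% in follicle organoids in expansion medium. The same library had the lowest complex I share of all 23, at 0.265% of nuclear counts, where tissue ran from 0.362 to 0.461%. It is shallow, at 219881 counts, and carries more RNA of other cells than follicle organoids do, with hair shaft markers at 403 CPM against at most 33.9 CPM and fibroblast markers at 679 CPM. The part of these in the level of ATP5G3 was not tested.

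COX5A was called in all 13 alternatives as well. It rose from 128 and 69.4 CPM in tissue to 456 and 722 CPM in organoids (2.47 ± 0.41; edgeR adjusted p = 0.00043). NDUFS1, the largest core subunit of complex I, went from 16.9 and 7.71 CPM to 71.2 and 72.1 CPM (2.32 ± 0.53; edgeR adjusted p = 0.0070), although the lower value rests on few counts. NDUFC1 (1.35 ± 0.37) and NDUFV2 (1.41 ± 0.39), a core subunit in the part of complex I that takes electrons from NADH, also rose. So did ATP5G1 (2.13 ± 0.58), ATP5G2 (1.17 ± 0.35), COX8A (1.34 ± 0.41) and NDUFA4L2 (3.62 ± 1.12). These calls were less stable. Of the 13 alternatives, 8 kept each of NDUFC1, ATP5G1 and NDUFA4L2, 7 kept NDUFV2, 6 kept ATP5G2 and 5 kept COX8A. NDUFA4L2 had 2 counts in each interfollicular tissue library. NDUFA7 had 0 counts in both interfollicular tissue libraries and stood at 7.69 and 18.04 CPM in the organoids, from 4 and 3 counts, and it did not pass (edgeR adjusted p = 0.054). COX7A1, which fell in follicle organoids, was at 4.83 and 0 CPM in interfollicular tissue and at 1.92 and 6.01 CPM in its organoids, from at most 2 counts each. SDHA had 1.46 ± 0.58 and did not pass (edgeR adjusted p = 0.11). Of the other lists, 10 of 15 hypoxia and glycolytic genes were higher, as were 4 of 8 exchange genes, among them the ADP/ATP carrier SLC25A5 (2.69 ± 0.58).

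**Figure D3:**
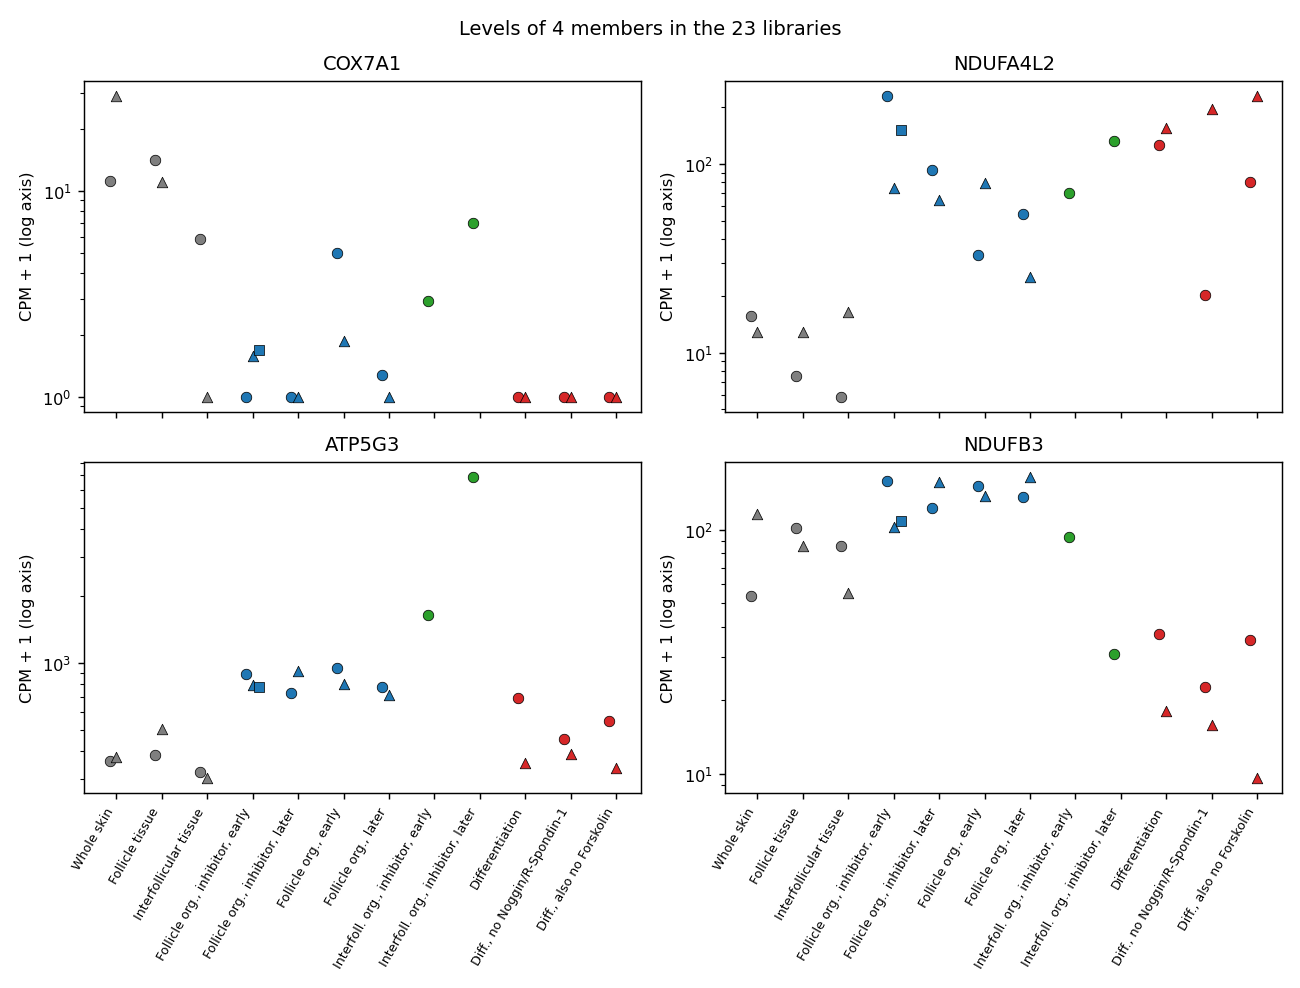
Levels of COX7A1, NDUFA4L2, ATP5G3 and NDUFB3 in all 23 libraries, as CPM plus 1 on a log axis, by group on the horizontal axis. Points are single libraries, with symbols for replicate numbers and colours for tissue (grey), follicle organoids (blue), interfollicular organoids (green) and differentiation media (red). ATP5G3 reaches 6866 CPM in the later interfollicular library, and NDUFB3 lies at or below 36.4 CPM in every differentiation library.

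Follicle against interfollicular tissue gave no called member. By edgeR, 2.05% of all genes were higher and 0.738% lower, and 11 members had an unadjusted p under 0.05, as had 16.1% of all genes. The members' median log2 difference was 0.44 against 0.21 over all genes, with 58 of 63 above 0 and 58.9% of all genes. NDUFA3 and NDUFA7, both accessory subunits of complex I, had the smallest p-values. NDUFA3 stood at 17.02 and 19.4 CPM in follicles and at 2.41 and 7.71 CPM in interfollicular epidermis (2.26 ± 0.75; edgeR adjusted p = 0.12). NDUFA7 stood at 13.1 and 6.27 CPM in follicles from 10 counts each, and had 0 counts in both interfollicular libraries (edgeR adjusted p = 0.13).

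Neither the Tgf-beta inhibitor nor the passage went with a called change of a member. With against without inhibitor no member was called, where 1.92% of all genes were higher and 0.758% lower, and 2 members had an unadjusted p under 0.05, as had 14.1% of all genes. The members' median log2 difference was -0.03. NDUFA4L2 was highest among the members at 1.20 ± 0.47 (SE; edgeR adjusted p = 0.21), with a lowest, median and highest value of 63.8, 92.0 and 229 CPM in the 5 libraries with inhibitor and 24.2, 42.6 and 78.5 CPM in the 4 without, so the groups overlapped. ATP5E, a subunit of ATP synthase, followed at 0.53 ± 0.25 (SE; edgeR adjusted p = 0.34). VEGFA (2.04 ± 0.49) and EGLN3 (3.05 ± 0.79), both known hypoxia targets, were the 2 genes of the hypoxia list that rose with the inhibitor.

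Later against early passage called no member, where 0.172% of all genes were higher and 0.182% lower, and 1 member had an unadjusted p under 0.05, as had 7.19% of all genes. The median log2 difference of the members was 0.12, with 50 of 63 above 0 against 46.6% of all genes. COX7A1 had the smallest p at -2.69 ± 1.18 (SE; edgeR adjusted p = 0.65), from 0 to 3 counts a library, and NDUFA4L2 followed at -0.75 ± 0.46 (SE; edgeR adjusted p = 0.80). The inhibitor's effect at later minus early passage called no member and 0% of all genes in either direction, with no member and 267 genes at an unadjusted p under 0.05. NDUFA11 (0.73 ± 0.51) and NDUFB10 (0.57 ± 0.46) had the smallest p-values there.

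Differentiation media against later organoids without inhibitor in expansion medium gave few calls among the members, most of them falls. By edgeR 1 of 63 members was higher and 9 were lower, where 4.4% of 9732 genes were called higher and 10.1% lower. The fit takes the 6 differentiation libraries as independent. Those with the same replicate number deviated together across the media (correlations across genes of 0.44, 0.34 and 0.37). The SEs and p-values of this comparison may therefore be too small. The members' median log2 change was -0.40 against -0.14 over all genes. Complex I had 6 of the falls among 34 tested members, complexes II and III 1 each, and COX7A2L was the ninth. No subunit passed among the 5 tested of complex IV and the 12 of complex V. The median log2 changes of complexes IV and V, -0.46 and -0.37, were near the -0.41 of complex I. Complexes II and III had medians of -0.74 and 0.14. Without either later expansion library 2 members were called lower, and in a fit of only these groups 1. Without replicate 1 of the medium lacking Noggin and R-Spondin-1 there were 14, without replicate 1 of the medium that also lacked Forskolin 16, and with both later expansion groups as reference 15.

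NDUFB3, an accessory subunit in the membrane arm of complex I, fell most. It stood at 135 and 163 CPM in expansion medium, and in the 6 differentiation libraries the lowest, median and highest values were 8.60, 19.4 and 36.4 CPM. All 6 lay below every follicle organoid library in expansion medium, the lowest of which held 102 CPM. The log2 change was -2.68 ± 0.35 (SE; edgeR adjusted p = 4.8e-05), and the call was kept in all 20 alternatives. SDHD, a membrane anchor of complex II, went from 34.6 and 33.8 CPM to 19.9 and 24.0 CPM in differentiation medium, 9.63 and 17.3 CPM without Noggin and R-Spondin-1, and 4.56 and 0 CPM without Forskolin as well. These rest on 0 to 12 counts a library (-1.84 ± 0.35; edgeR adjusted p = 0.0016). The other anchor, SDHC, had -0.02 ± 0.30, and SDHA (-0.99 ± 0.35) and SDHB (-0.49 ± 0.31) did not pass, with edgeR adjusted p-values of 0.063 and 0.31.

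NDUFB5 (-1.42 ± 0.35), NDUFB6 (-1.23 ± 0.32) and NDUFB4 (-1.11 ± 0.32), all of the membrane arm, fell too. So did NDUFV2 (-1.09 ± 0.27) and the accessory subunit NDUFS4 (-0.93 ± 0.27). UQCRFS1, the Rieske iron-sulphur protein of complex III, went from 196 and 179 CPM to between 60.2 and 128 CPM (-1.14 ± 0.30; edgeR adjusted p = 0.014), and UQCRC2 changed by -1.48 ± 0.26 (edgeR adjusted p = 0.00087). The other core protein, UQCRC1, had -0.65 ± 0.40 and did not pass (edgeR adjusted p = 0.28). COX7A2L changed by -0.87 ± 0.26 (edgeR adjusted p = 0.030), a call kept in 12 of 20 alternatives. NDUFV3 went the other way, from 48.7 and 69.3 CPM to 82.1 to 143 CPM (0.91 ± 0.30; edgeR adjusted p = 0.046), a call kept in 10 of 20. NDUFA4L2 had 1.74 ± 0.61 and did not pass (edgeR adjusted p = 0.060). Outside the members, 17 of 76 mitochondrial ribosomal proteins were lower and 1 higher, led by MRPS31 (-4.12 ± 0.42), and 7 of 31 assembly factors were lower and 1 higher, led by the copper chaperone COX17 (-4.73 ± 0.68).

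The 2 libraries of each differentiation medium stood far apart in the members' share, while the means of the 3 media were 1.68, 1.62 and 1.73% of nuclear counts. In the libraries numbered 1, members took 2.04, 2.07 and 2.20% of nuclear counts in the medium with all factors, without Noggin and R-Spondin-1, and without Forskolin as well. In those numbered 2 they took 1.31, 1.18 and 1.26%. The 3 libraries numbered 1 thus held the highest shares of all 23, and the 3 numbered 2 lay below all organoids in expansion medium. The mitochondrially encoded share divided the same libraries, at 16.0, 15.1 and 17.2% against 12.7, 8.63 and 8.05%. Its mean over all 6, 12.9% ± 3.86 (SD, n = 6), was not separated from the 16.5% ± 1.32 (SD, n = 2) of later expansion organoids by an exact permutation test (p = 0.29, adjusted p = 0.73), which cannot go below 0.0714 here. That test also takes the 6 libraries as independent.

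Member by member, 47 of 63 were higher in number 1 than in number 2 in all 3 media, against 22.7% of all genes, and 2 were lower in all 3, against 18.2%. The 2 were NDUFA4L2 and ATP5S. The members' median log2 difference was 0.72, 0.72 and 0.74 in the 3 media, where all genes had 0, 0 and 0.06. NDUFA4L2 was at 125.9, 19.3 and 79.9 CPM in the libraries numbered 1 and at 154, 195 and 228 CPM in those numbered 2. UQCRQ, an accessory subunit of complex III, was at 1252, 1623 and 1253 CPM in number 1 and 606, 237 and 679 CPM in number 2. ATP5D, a subunit of ATP synthase, was at 1221, 1168 and 1246 CPM against 305, 521 and 438 CPM. Of the 13 mitochondrially encoded genes 11 were higher in number 1 in all 3 media, and of 76 mitochondrial ribosomal proteins 42. The hypoxia and glycolytic list went the other way, with 8 of 15 genes lower in number 1 in all 3 media and 1 higher. Suprabasal keratinocyte markers summed to 2550, 2536 and 2569 CPM in number 1 and to 10969, 14268 and 13390 CPM in number 2. Of the 7 markers KRT1 was at 0 in both libraries of the medium with all factors and of the medium that also lacked Forskolin. The part of these markers in the difference was not tested. This comparison was added after the values were seen, and the labels do not say what the numbers share.

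The fall of members against expansion medium therefore depended on which libraries stood for the media. With only those numbered 1, 5 members were called higher and 4 lower, and with only those numbered 2, 2 were higher and 31 lower. The members' median log2 change was -0.04 with the first set and -0.90 with the second, against -0.28 and -0.54 over all genes. The share of all genes called in these 2 fits is not given here, so the counts of calls are a description. NDUFB3, SDHD, NDUFB5 and NDUFV2 were called lower with either set. Removing Noggin and R-Spondin-1, or Forskolin as well, called no member and 0% of all genes in either direction. Of the members, 2 and 1 had an unadjusted p under 0.05, as had 260 and 329 genes. NDUFA3 (1.12 ± 0.52) and ATP5S (-2.44 ± 1.14) had the smallest p-values in the first comparison, and SDHD (-2.16 ± 0.79) and NDUFS4 (-0.63 ± 0.41) in the second, each with an edgeR adjusted p of 1.

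**Figure D4:**
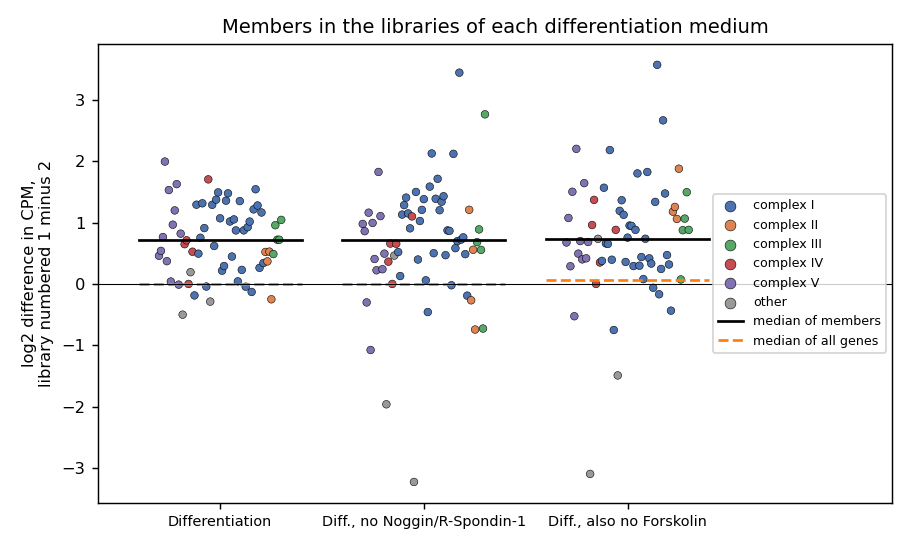
Each point is a member, with the log2 difference in CPM between the library numbered 1 and that numbered 2 of the same differentiation medium on the vertical axis and the medium on the horizontal axis. Colours mark complexes, black bars are the members' medians (0.72, 0.72 and 0.74) and dashed lines the medians of all genes. Most points lie above 0 in each medium, and NDUFA4L2 and ATP5S lie below 0 in all 3.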

How the data were processed

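CEL-seq2 counts of 23 dog libraries were used as the authors deposited them. The deposited values are counts per gene with fractions in 4.91 to 10.65% of a library's lines, handled like expected counts from shared reads and rounded. Per the submitters' processing notes, BWA 0.6.2-r126 and the build CanFam 3.1 were used. The annotation, the counting tool and any use of molecular barcodes were not given in the sources used here. The 4 entries that name no gene (0.461 to 2.16% of counts) were left out. Columns of other samples numbered 0.

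Genes were filtered by edgeR's default over the 12 groups (9888 kept, 9732 with differentiation libraries), scaled by TMM and fitted with edgeR 4.0.16 in R 4.3.3 (quasi-likelihood, 1 mean per group, 11 residual degrees of freedom). P-values were adjusted over all genes by Benjamini and Hochberg, and calls were made at 0.05. The SE is the log2 change divided by the square root of F. Exact permutation tests used numpy 2.4.6. The code was tested on simulated data. Members, lists and comparisons were chosen with earlier results of these data known. Named are, per comparison, the called members with the smallest p (up to 8 a direction, otherwise the 2 with the smallest p), SDHA to SDHD, isoform pairs, the extremes, and up to 3 called genes per list and direction. Others were named after their values were seen. Symbols are those of the files, and 2 locus names were matched to UU_Cfam_GSD_1.0. Alternatives were DESeq2 1.42.0 and its size factors, library totals, other filters, removal of mitochondrially encoded genes, merged symbols, a replicate block, fits of only the groups compared and left-out libraries.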

Additional observations from a re-analysis of the deposited data

Results flagged for a closer look

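ATP5G3 is listed because its organoid-to-tissue change differed between the 2 origins. The change was larger in interfollicular than in follicle organoids with inhibitor by 2.54 ± 0.48 on the log2 scale (SE; edgeR adjusted p = 0.0022), a test of the difference itself that was added after the values were seen. Both interfollicular organoid libraries, at 1635 and 6866 CPM, lay above all 5 follicle libraries with inhibitor, which reached 921 CPM. Leaving out the later interfollicular library gave 1.505 (edgeR adjusted p = 0.27), and leaving out the early one 3.59 (edgeR adjusted p = 7.5e-05). Each of these groups has 1 library.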

How the results depend on the processing

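Counts of called members depended on the scaling, the filter and single libraries, and no called member reversed its direction in 568 re-analyses of called members, of which 150 lost a call. In follicle organoids against tissue (11 higher), 5 members were called higher with DESeq2 size factors and 5 with library totals, 27 in a fit of only the groups compared, and 1 to 11 with a library left out. In interfollicular organoids (9 higher, 0 lower), library totals gave 3 higher and 1 lower, no filter gave 5, only the groups compared gave 3, and a left-out library 4 to 6. With against without inhibitor, 1 was higher without a filter. In the differentiation media (1 higher, 9 lower), higher calls numbered 2 with DESeq2 size factors, 4 with the DESeq2 Wald test, 0 with the stricter filter, 0 in a fit of only the groups compared, where 1 was lower, and 0 to 2 with a library left out, where 2 to 16 were lower. With both later expansion groups as reference 15 were lower. Among alternatives chosen after seeing the data, the libraries numbered 1 alone gave 5 higher and 4 lower, those numbered 2 alone 2 and 31, and the test between origins (1 higher) gave 0 to 2 with a library left out.

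With the replicate block, 8 members were higher in follicle organoids, 6 in interfollicular organoids, and 0 higher and 9 lower in the differentiation media, where NDUFV3 and COX7A2L lost their calls, and other counts of called members stayed at their values. The numbers are not stated to pair samples, so this is no paired design. Same-numbered libraries of the differentiation media deviated together (correlations across genes of 0.44, 0.34 and 0.37).

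The correlation of the members' share with the mitochondrially encoded share (0.49) was 0.27 with both as shares of all counts and 0.58 without the 2 libraries farthest from the median. A comparison of the 13 protein genes with all mitochondrial entries was not run. Depth limits the shallow libraries most: 3 counts stood for 35.5 unscaled CPM in the shallowest.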
